A study of Saccharomyces cerevisiae with 3 samples.

Results

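The regions described here are stretches of open chromatin that were listed in a gcn5 deletion strain of budding yeast and in neither an sba1 deletion strain nor the wild type. The site lists of all 3 strains were merged into union regions wherever sites touched or overlapped by 1 bp, on nuclear chromosomes, and regions made only of gcn5 deletion sites were kept. The members were thus selected on the site calls themselves, and their absence from the other lists is not a finding. This gave 271 gcn5-private regions among 4143 union regions. Each of the 271 was made of 1 site, so they were 8.85% of the 3061 nuclear sites of the gcn5 deletion list.

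The libraries were DNase-seq of nuclei from haploid MATa cells of strain BY4741 grown in glucose-rich YPD medium: 1 with the genotype gcn5-/-, 1 with the genotype sba1-/- and 1 from the wild-type parent. The deletion strains were single-gene deletion isolates obtained from Open BioSystems, and all cultures were harvested at the same density. Nuclei were digested with several amounts of DNase I, and the labels do not state which amount was sequenced. DNase I cuts DNA that is not wrapped in nucleosomes, and a peak caller lists stretches with many cuts as hypersensitive sites. The series title names the question as how the p23 chaperone, which is the Sba1 protein in yeast, and the Gcn5 acetylase jointly affect open chromatin. The nuclear lists held 3061 gcn5 deletion, 2438 sba1 deletion and 3259 wild-type sites. They covered 1251 kb, 1557 kb and 1217 kb, and their median widths were 261, 350 and 247 bp. Read depth is unknown from these lists. With 1 library per strain no difference has a replicate check, so no test between strains was run. Intervals are exact Clopper-Pearson 95% intervals over sites of 1 library, and they cover counting error only. The deleted gene itself gave no check of the label, since the GCN5 coding sequence held no site in the gcn5 deletion strain, 2 in the sba1 strain and 0 in the wild type. The SBA1 coding sequence held 1 site in the sba1 strain, which covered 12 bp of it, and 0 in the gcn5 deletion strain and the wild type. Whether that site bears on the sba1 label was not tested.

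Gcn5 is the catalytic subunit of the SAGA and ADA complexes. It acetylates lysines in the tail of histone H3, mostly on nucleosomes at promoters, and SAGA also helps to bring TATA-binding protein to promoters. Many yeast promoters hold a nucleosome-depleted stretch just upstream of the transcription start, which is where DNase I cuts most.

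The gcn5-private regions were narrow and low-scored. Their median width was 117 bp, with quartiles of 80.5 and 167 bp and a range of 1 to 810 bp. The 2790 gcn5 deletion sites that lay in shared regions had a median width of 284 bp. In all, 106 of the 271 regions were at most 100 bp wide and 8 were at most 20 bp wide. Together they covered 36.8 kb, or 2.94% of the bases in the gcn5 deletion list.

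The score is the authors' own value for a site and has no stated scale. Score values are compared here only within the gcn5 deletion list. Where lists were shortened, each list was ranked by its own scores. The score chose the members only through the calling of sites, but it comes from the same list, so it is given as a description. The regions had a median score of 1.97, with quartiles of 1.93 and 2.05 and a range of 1.89 to 3.95. The median score of gcn5 deletion sites in shared regions was 2.30. Of the 271 regions, 15 lay above the median score of their list and 4 had a score over 2.5. They made up 26.8% of the lowest-scored 10% of gcn5 deletion sites and 0.326% of the highest-scored 10%.

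Score followed width among the members (Spearman's rho 0.863 over 271 sites of 1 library) as it did among gcn5 deletion sites in shared regions (rho 0.893 over 2790). At similar width the scores were close where sites were narrow. Among sites over 80 and up to 120 bp wide the median score was 1.96 for 74 private regions and 1.96 for 206 sites in shared regions. Up to 80 bp it was 1.91 for 68 private regions and 1.91 for 162 sites in shared regions. Over 120 and up to 170 bp it was 2.01 for 66 private regions and 2.04 for 337 sites in shared regions. Over 170 and up to 250 bp it was lower for private regions, at 2.10 for 41 of them and 2.17 for 500 sites in shared regions. Above 250 bp it was 2.24 for 22 private regions and 2.66 for 1585 sites in shared regions. That class has no upper limit and is not of similar width, since private regions reached 810 bp and sites in shared regions 4315 bp.

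**Figure D1:**
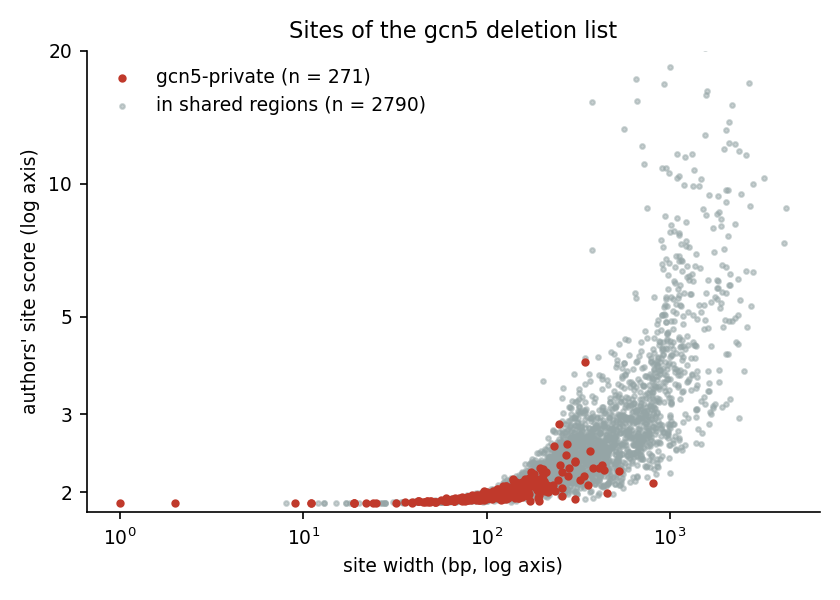
Score against width (bp) for each site of the gcn5 deletion list, both on log axes; red points are the 271 gcn5-private regions and grey points the 2790 sites in shared regions, of which 6 with a score above 20 lie off the axis. Most red points sit at the narrow, low-scored end, and the highest red point, at a score of 3.95, is the region upstream of GCN5.

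The rule turns on a single base of overlap, so the regions nearest to it are given. The closest member, at RNY1 (chrXVI:318879-319159), lay 4 bp from a wild-type site and 5871 bp from an sba1 deletion site. Next came a region between DSF2 and FLR1 (chrII:252119-252272), 288 bp from an sba1 deletion site and 25 bp from a wild-type site. The region upstream of PDC1 (chrXII:234483-234675) lay 36 bp from an sba1 deletion site and 330 bp from a wild-type site, and that of BRR6 (chrVII:36740-36877) lay 127 and 51 bp from them. In all, 8 gcn5 deletion sites overlapped another list by 10 bp or less and so fell just outside. Among them a 48 bp site at GLN4 overlapped a wild-type site by 7 bp, and a 123 bp site at CHA4 overlapped an sba1 deletion site by 9 bp. Others were themselves that narrow, such as a 2 bp site at RPF1 and an 8 bp site at TCB3, which lay wholly inside a wild-type site.

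Few members lay that close. The gap to the nearest site had a median of 1841 bp for the sba1 deletion list, with quartiles of 660 and 3904 bp, and a median of 1392 bp for the wild-type list, with quartiles of 484 and 2846 bp. Taking the nearer of the 2 lists, 23 of 271 gaps (8.49%) were at most 150 bp and 16 exceeded 5 kb. The most isolated member was the one between AIP1 and UTP15, 9062 bp from an sba1 deletion site and 8731 bp from a wild-type site. TYR1, TBS1 with APD1, and CTF13 followed. The TYR1 region was 74 bp wide and lay 14355 bp from an sba1 deletion site and 8058 bp from a wild-type site.

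**Figure D2:**
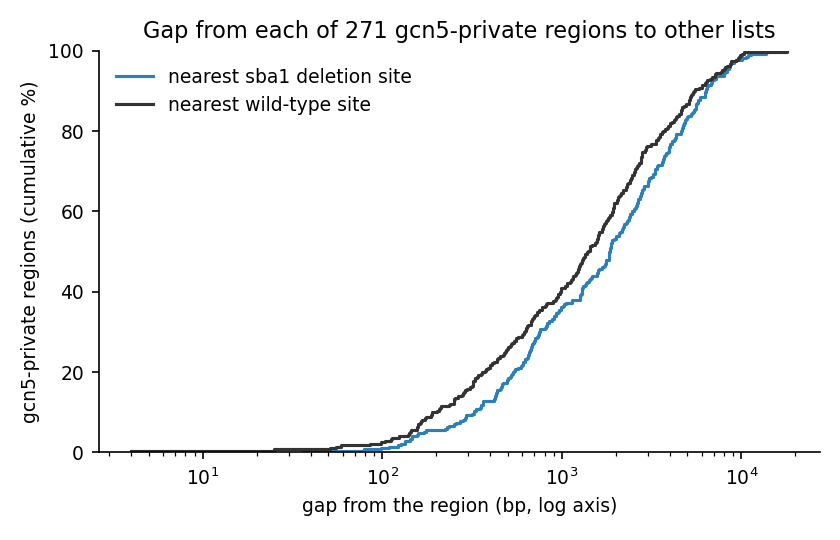
Cumulative percentage of the 271 gcn5-private regions against the gap (bp, log axis) to the nearest sba1 deletion site, in blue, and to the nearest wild-type site, in black. The blue curve lies to the right over most of its range, with medians of 1841 and 1392 bp, and few regions lie within 150 bp of a site.

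Gcn5-private regions lay in promoter windows about as often as the other gcn5 deletion sites did. Midpoints of 139 of 271, or 51.3% (45.2 to 57.4), fell in a promoter window, taken as the noncoding bases among the 500 bp before a start codon. Another 89, or 32.8% (27.3 to 38.8), lay in coding sequence, and 43, or 15.9%, lay elsewhere. The gcn5 deletion sites in shared regions had similar shares, at 46.9% (45.1 to 48.8) and 32.3% (30.5 to 34.0). The promoter share depends on the definitions, at 35.1% with a window of 250 bp and 43.8% where sharing needed 50% overlap. By comparison, noncoding promoter windows hold 16.02% of all nuclear bases and coding sequence holds 72.9%.

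Regions private to the other strains had lower promoter shares. Of the 682 sba1-private regions 20.5% (17.6 to 23.8) were centred in promoter windows and 73.0% (69.5 to 76.3) in coding sequence. Of the 602 wild-type-private regions 34.2% (30.4 to 38.2) were centred in promoter windows and 50.5% (46.4 to 54.6) in coding sequence. Median width ran opposite to the promoter share, at 117 bp for gcn5-private, 251 bp for sba1-private and 128.5 bp for wild-type-private regions. The part of width in the difference was not tested. The comparison was repeated with only the better-scored 50% of every list. A region private there may overlap a lower-scored site of another strain. Of 135 gcn5-private regions in that setting, 15 were private against the full lists, so most are not members of the set described here. The coding share in that setting was 22.2% (15.5 to 30.2) for gcn5-private, 68.8% (63.9 to 73.4) for sba1-private and 34.1% (28.9 to 39.6) for wild-type-private regions.

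Within the gcn5 deletion list the coding share depended on width. Among sites up to 80 bp wide, 21 of 68 private regions (30.9%, 20.2 to 43.3) and 87 of 162 sites in shared regions (53.7%, 45.7 to 61.6) were centred in coding sequence. Among those over 80 and up to 120 bp the shares were 43.2% and 41.7%. Over 170 and up to 250 bp they were 19.5% (8.82 to 34.9) and 37.2% (33.0 to 41.6). The promoter share of private regions was higher than that of shared sites in each of the 5 width classes, with intervals that overlapped in each class.

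**Figure D3:**
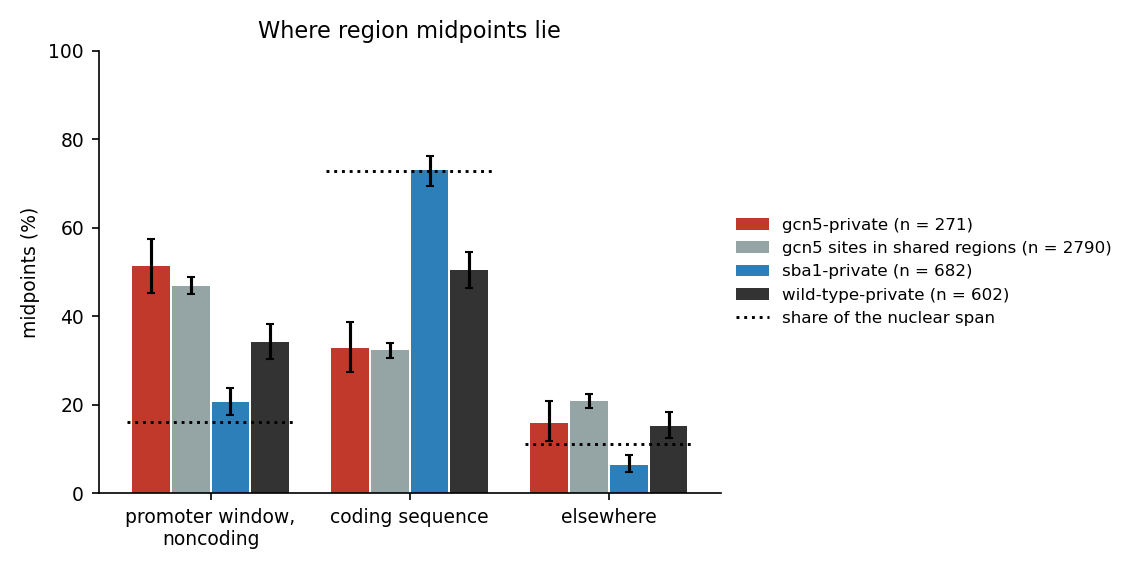
Percentage of region midpoints in noncoding promoter windows, in coding sequence and elsewhere, for gcn5-private regions, gcn5 deletion sites in shared regions, sba1-private and wild-type-private regions; error bars are exact 95% intervals and dotted lines the share of the nuclear span. Gcn5-private regions reach 51.3% in promoter windows, against 20.5% for sba1-private and 34.2% for wild-type-private regions.

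Private regions in promoter windows lay about as far upstream as gcn5 deletion sites of shared regions did, in windows that limit the distance to 500 bp. Among the 139 in promoter windows the median midpoint was at -185 bp from the nearest start codon, where negative is upstream, with quartiles of -275 and -121.5 bp. For gcn5 deletion sites in shared regions the median was -180 bp, and for wild-type-private regions it was -143 bp. Of those 139, 84 or 60.4% lay between 50 and 250 bp upstream. Outside coding sequence, 67 of 182 (36.8%, 29.8 to 44.3) lay between divergent genes, 100 (54.9%) between tandem genes and 15 (8.24%, 4.69 to 13.2) between convergent genes, whose 3′ ends face each other. Shared gcn5 deletion sites had 37.8%, 51.7% and 9.68%. These gaps between genes were of similar length, with medians of 733.5 bp for private regions and 724.5 bp for sites in shared regions. Along coding sequence there was no preferred part, with 30, 29 and 30 of the 89 coding regions in the first, middle and last of 3 equal parts.

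**Figure D4:**
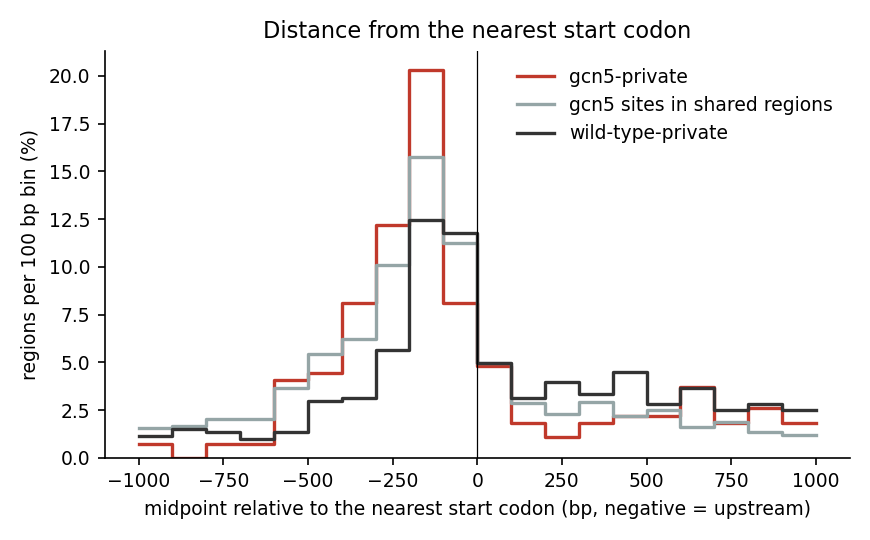
Percentage of regions per 100 bp bin by distance of the midpoint from the nearest start codon (bp, negative is upstream), for gcn5-private regions in red, gcn5 deletion sites in shared regions in grey and wild-type-private regions in black. The red line peaks at 20.3% in the bin from 200 to 100 bp upstream and is at most 4.80% in the bins downstream. The bins show distance only, and 32.8% of gcn5-private midpoints lay in coding sequence.

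The highest-scored member lay directly upstream of the deleted gene. It spanned chrVII:996505-996846, 342 bp between NOP19 and GCN5 in the tandem gap, and its score of 3.95 exceeded 91.8% of the gcn5 deletion list. Its right edge was separated from the GCN5 start codon (YGR252W, chrVII:996869-998188, plus strand) by 22 bp. The nearest site was 669 bp away in the sba1 deletion and 1570 bp away in the wild type. Whether this region reflects the altered DNA at the deleted locus cannot be told apart from a change in chromatin with these lists.

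The members with the second and the fourth highest score overlapped windows of TRS23 and TRS33, which encode subunits of the TRAPP complex that tethers vesicles in the secretory pathway. The TRS23 promoter held a 249 bp region (chrIV:954020-954268) with a score of 2.86, above 80.04% of the list. It was centred 144 bp upstream of the start codon, 463 bp from an sba1 deletion site and 730 bp from a wild-type site. A region of 232 bp with a score of 2.55 (chrXV:539734-539965) overlapped the TRS33 window but was centred at the 3′ end of RPO31, which encodes the largest subunit of RNA polymerase III. No wild-type site lay within 17932 bp of it, and the nearest sba1 deletion site was 5303 bp away. Another TRAPP gene, TRS31, had a region with a score of 2.09 (chrIV:1403038-1403197), which also overlapped the small nucleolar RNA gene SNR13. The TRS31 window also held another gcn5 deletion site and a wild-type site and no sba1 deletion site, while the TRS23 and TRS33 windows held no site of the sba1 deletion or the wild type. TRAPP genes were singled out after their values were seen, and the vesicle traffic list as a whole had a private promoter region at 3 of 51 genes, or 5.88% (1.23 to 16.2), where all genes had 3.27%.

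The other high-scored promoter members lay at genes of varied function. CTF13, a subunit of the centromere-binding CBF3 complex, had a 275 bp region (chrXIII:455574-455848) with a score of 2.57. Its neighbour upstream, the divergent promoter of AIP1, an actin filament disassembly factor, and UTP15, a small-subunit ribosome assembly factor, held a 424 bp region (chrXIII:453537-453960) with a score of 2.30. The CTF13 region lay 7174 bp from an sba1 deletion site and 6843 bp from a wild-type site, so this stretch carried 2 private regions 1613 bp apart and no site of another list beside them. RNR1, the large subunit of ribonucleotide reductase, had a 250 bp region (chrV:298416-298665) with a score of 2.30, centred 410 bp upstream of the start codon. CDC40, a splicing factor, had a region with a score of 2.27 (chrIV:1204218-1204412). The cap-binding translation factor gene CDC33 had one with a score of 2.20 (chrXV:61052-61233), which lay 5761 bp from an sba1 deletion site and 7092 bp from a wild-type site.

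The remaining promoter members among the 15 highest-scored had scores of 2.43 or less. APE3, a vacuolar aminopeptidase, had a region with a score of 2.43 (chrII:774458-774729). The methionyl-tRNA synthetase gene MES1 shared a region with a score of 2.36 with the divergent gene YGR266W (chrVII:1022257-1022561). The ribosomal protein gene RPL4B had a region with a score of 2.34 (chrIV:471310-471614), 98 bp from an sba1 deletion site and 207 bp from a wild-type site. RNY1, a ribonuclease, had a score of 2.27. YBR013C, at 2.26, shared its region with a transfer RNA gene. AMN1, which acts in separation of daughter cells, CBT1, which acts in processing of a mitochondrial messenger RNA, and PPH22, a catalytic subunit of protein phosphatase 2A, had scores of 2.24, 2.23 and 2.22. The PPH22 region was shared with the divergent gene YDL186W.

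Among members centred in coding sequence, the region in the RPO31 coding sequence had the highest score. EFM1, a lysine methyltransferase of a translation elongation factor, had a 364 bp region with a score of 2.48 (chrVIII:22987-23350). TRA1 encodes the activator-binding subunit shared by SAGA and NuA4, and its coding sequence held a 211 bp region with a score of 2.22 (chrVIII:307970-308180), near the middle of the gene. CPR7, a cyclophilin that is a co-chaperone of Hsp90 as Sba1 is, had 2 private regions. One lay over its start codon, in the divergent gap with GEA1 (chrX:490955-491190, score 2.02), and the other over its 3′ end (chrX:492100-492378, score 2.18). The nucleoporin gene NUP133 (score 2.14) and the ribosomal protein gene RPL16B (score 2.13) completed the 6 highest-scored coding members.

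Outside both classes, the highest-scored members lay in gaps between genes of 1289 to 3604 bp near chromosome ends. The convergent gap between AGP3, an amino acid permease gene, and AQY3 on chromosome VI held 3 private regions, with scores of 2.27, 2.13 and 2.01. The gap between YER186C and YER187W had one with a score of 2.25. FLO9, a cell surface flocculin gene, had the second widest member at 525 bp (chrI:28464-28988), with a score of 2.23. YOR389W and the gap between DAL5, an allantoate permease gene, and PGU1 followed with 2.23 and 2.15. The widest member, at 810 bp, was at the isomaltase gene IMA1 near the right end of chromosome VII (chrVII:1068958-1069767) with a score of 2.10, and FAT1, a fatty acid transport gene, was next after FLO9 in width, at 452 bp and a score of 1.99.

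Private regions were found more often toward chromosome ends, a comparison that was chosen after the regions had been seen. Within 50 kb of an end lay 65 of 271, or 24.0% (19.03 to 29.5), where 13.3% of the nuclear span lies. Gcn5 deletion sites in shared regions had 12.5% (11.3 to 13.8) there, sba1-private regions 14.2% (11.7 to 17.1) and wild-type-private regions 7.14% (5.22 to 9.50). Gcn5 deletion sites shared with the sba1 deletion only had 22.1% (16.6 to 28.4), and those shared with the wild type only had 8.48% (6.75 to 10.5). The whole lists held 13.5% of gcn5 deletion, 14.4% of sba1 deletion and 10.8% of wild-type sites there. By number these were 414, 351 and 352 sites, so the wild-type list had the lowest share there and about as many sites as the sba1 deletion list. When only the better-scored 50% of every list was used, the share within 50 kb was 20.0% (13.6 to 27.7) for gcn5-private regions. It was 18.6% (14.8 to 22.8) for sba1-private and 5.99% (3.65 to 9.20) for wild-type-private regions, so the deletion strains differed little in that setting. Most gcn5-private regions of that setting are not members here, since 15 of 135 were private against the full lists. With an equal number of best-scored sites from each list, the share was 23.0% (17.7 to 29.1) for gcn5-private regions. There it was 13.9% (11.5 to 16.5) for sba1-private and 6.82% (4.51 to 9.84) for wild-type-private regions. The difference between the deletion strains thus depended on how the lists were shortened.

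Those 65 regions lay at 28 of the 32 chromosome ends. The left end of chromosome VII had 6 and the right end of chromosome III had 5, so no single end carried the share. Gcn5-private regions numbered 3.25 per 100 kb in the outermost 25 kb, 4.88 between 25 and 50 kb and 1.95 beyond 200 kb. For sba1-private regions the same densities were 4.50, 7.63 and 4.66, and for wild-type-private regions they were 1.63, 3.75 and 5.21. Both deletion strains thus had a higher density between 25 and 50 kb than beyond 200 kb, and the wild type did not. Of the 65, 24 were centred in promoter windows, 24 in coding sequence and 17 elsewhere. Families of near-identical genes lie near yeast chromosome ends, and how reads that map to several places were treated is not stated in the labels. Its part in this count was not tested.

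**Figure D5:**
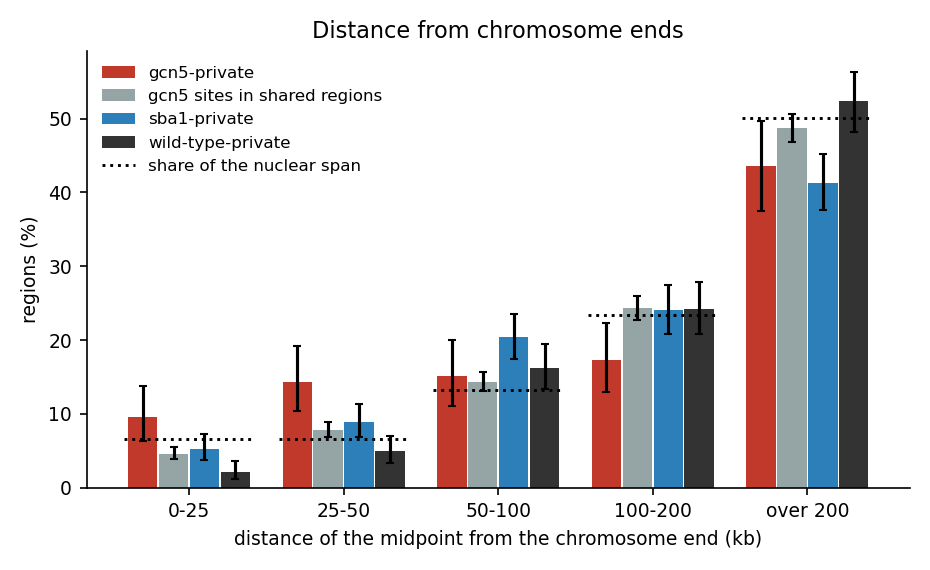
Percentage of regions by distance of the midpoint from the nearer chromosome end (kb) for gcn5-private regions, gcn5 deletion sites in shared regions, sba1-private and wild-type-private regions; error bars are exact 95% intervals and dotted lines the share of the nuclear span. Gcn5-private regions stand above the other 3 groups in the 2 classes within 50 kb of an end.

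By chromosome, the share of gcn5 deletion sites that were private ran from 6.02% (3.61 to 9.35) on chromosome XII, 18 of 299, to 12.8% (9.14 to 17.2) on chromosome VII, 37 of 290. Chromosome II had 25 of 196, also 12.8%. GCN5 lies on chromosome VII near its right end, and 12 private regions had their midpoint within 100 kb of its start codon. That is 6.19 per 100 kb, against 2.25 over the genome. Of 6002 protein-coding genes, 107 or 1.78% had an equal or higher density within 100 kb. The highest was at HXK2 near the left end of the same chromosome, with 8.88 per 100 kb. Such stretches overlap for neighbouring genes, so the 107 genes are not separate observations. The 12 regions include the one directly upstream of GCN5. In the stretch around GCN5 there were also 21 sba1-private regions, or 10.8 per 100 kb against 5.65 over the genome, and 1 wild-type-private region, or 0.516 per 100 kb against 4.99. Fewer private sites of the wild type thus went with more in both deletion strains there. Within 50 kb of GCN5 lay 6 private regions, and the region upstream of GCN5 lies 93745 bp from the chromosome end. The parts of the deleted gene and of the chromosome end in this density were not tested.

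Private regions overlapped the promoter windows of 196 of 6001 protein-coding genes, or 3.27%, through 165 of the 271 regions. Since these overlaps come from the same lists as the rule, that figure is the level beside which the gene lists are set, and nothing is read from a difference. For 165 of the 196 genes, or 84.2% (78.3 to 89.0), neither the sba1 deletion nor the wild type had any site in the window. Over all 6001 genes this held for 2734, or 45.6%, and the rule, which leaves out regions with a site of another strain, by itself raises the share among the 196. For 180 the private region was the only gcn5 deletion site there. Another 17 had a site in the wild type only and 9 in the sba1 deletion only. Both other strains had one at 5 genes, PDC1, CBT1, RAD16, EMC3 and PSD1. Private regions overlapped 114 of 6002 coding sequences, or 1.9%, and some of these genes, such as CTF13 and CPR7, are also among the 196.

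Amino acid biosynthesis genes, many of which are activated by Gcn4 through SAGA, had a private promoter region at 5 of 40, or 12.5% (4.19 to 26.8). ARO4 and ARO3 encode the isozymes that open aromatic amino acid synthesis. ARO4 had 2 regions, with scores of 2.14 (chrII:718021-718201) and 2.02 (chrII:718492-718654), the second shared with SPO23, and its nearest wild-type site was 9636 bp from the second. ARO3 had one with a score of 1.93. ILV1, which makes the first committed step of isoleucine synthesis, had one with a score of 2.11 (chrV:328221-328408). ARG5,6 of arginine synthesis had a 357 bp region with a score of 2.08, centred 541 bp upstream, and the window of the serine synthesis gene SER1 was overlapped by a region centred in RPS30B, with a score of 2.04. None of the 5 windows held a wild-type site or a shared gcn5 deletion site, and only that of SER1 held an sba1 deletion site. Over the whole list any promoter site was listed for 27 genes in the gcn5 deletion strain, 24 in the sba1 strain and 20 in the wild type. Over all genes such a site was listed for 43.9% in the gcn5 deletion strain, 38.7% in the sba1 strain and 43.2% in the wild type.

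Cytosolic ribosomal protein genes had a private promoter region at 10 of 138, or 7.25% (3.53 to 12.9). After RPL4B the highest-scored were RPL26A, whose 340 bp region lay over the start codon (chrXII:819134-819473, score 2.17), RPS3 (chrXIV:302397-302609, score 2.08) and RPS14A (chrIII:178434-178599, score 2.06). Any promoter site was listed for 111 of the 138 in the gcn5 deletion strain, 94 in the sba1 strain and 99 in the wild type, where all genes had 43.9%, 38.7% and 43.2%. Ribosome biogenesis genes had a private region at 2 of 45, at UTP15 and at SSF1, where it was centred in the coding sequence of the neighbour RRP3.

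Genes of sugar use and of the cell surface had a few each. Glycolysis and fermentation genes had 2 of 22, at the pyruvate decarboxylase gene PDC1 (score 1.97) and at PFK1, a phosphofructokinase subunit (score 1.93). Hexose transport genes had 2 of 22, at the low-affinity transporter gene HXT1 (score 1.91) and the glucose sensor gene SNF3 (score 1.89), both among the lowest-scored members. Cell wall genes had 3 of 44, at FLO9, at the glucanase gene BGL2 (score 1.96) and at the flocculin gene FLO11 (score 1.94). The FLO11 region lay 3387 bp from an sba1 deletion site and 4591 bp from a wild-type site. The PAU family had 1 of 24, at PAU12.

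Other lists had at most 3 members. Vesicle traffic genes had the TRAPP genes, 3 of 51. Cell cycle and replication genes had 2 of 51, at RNR1 and at SWI4 (score 1.97), a G1 transcription factor gene. Kinetochore genes had 1 of 34 at CTF13, phosphate and sulfur genes 1 of 43 at CYS4, meiosis genes 1 of 49 at SPO74, and Hsp90 and its co-chaperones 1 of 18 at CPR7. SAGA subunit genes had 1 of 19, GCN5 itself, and chromatin remodelling and modification genes had 1 of 40, at the deacetylase gene HDA1, where the region was 11 bp wide.

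A private promoter region was absent from 5 lists. General stress genes, many of which need SAGA for induction, had a private promoter region at 0 of 30, and 3 counts set the limit at 10.0%, although HSP26 had one in its coding sequence. Mating genes had 0 of 35, which allows 8.57%, proteasome genes 0 of 34, which allows 8.82%, and core histone genes 0 of 11, which allows 27.3%. The auxotrophic marker genes of the strain had 0 of 4, with an exact upper limit of 60.2%, and nothing is read from so few genes. The stress list had 18 genes with a promoter site in the gcn5 deletion strain, 22 in the sba1 strain and 18 in the wild type, out of 30, where all genes had 43.9%, 38.7% and 43.2%.

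Genes for untranslated RNA were counted by class, beside the 1.9% of coding sequences that a private region overlapped. Transfer RNA genes, which are transcribed by RNA polymerase III, overlapped a private region at 3 of 275, and small nucleolar RNA genes did so at 2 of 76, SNR13 and SNR17A. Genes classed as non-coding RNA did so at 2 of 21 and antisense RNA genes at 1 of 7. These counts are too small to read a difference from. A site of any kind overlapped 120 transfer RNA genes in the gcn5 deletion strain, 120 in the sba1 strain and 121 in the wild type. The non-coding RNA gene SUT053, between PST2 and MRH1, also held one, with a score of 2.08.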

How the data were processed

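DNase-seq site lists of 3 Saccharomyces cerevisiae strains were used, 1 library each. The submitters' processing notes name Bowtie 0.12.7 as a tool and sacCer3 as the build. Which caller and threshold made the lists, and the read depth, are not stated in the labels. Each deposited list holds site positions and a score that the authors deposited with no stated scale. Groups came from the genotype labels. Positions are 1-based on sacCer3. Genes came from the R64 table, taken as the same sequence, with 6477 genes, of which 6002 nuclear protein-coding genes were used; strand was read from systematic names. The mitochondrial chromosome was left out. All 754 names in 20 gene lists matched. The members and lists were chosen with earlier results of these data known. Named regions were, by score, 15 promoter, 6 coding and 5 other members, the 5 widest, the 4 nearest and 4 farthest, and members at listed genes (all for SAGA and amino acid genes, up to 4 a list otherwise) and up to 6 at RNA genes; a few others were named after their values were seen. The comparison by chromosome end was chosen after seeing the data. The merging code was tested on simulated data. Motif searches were planned and not run, because no genome sequence was used. The scripts ran under Python 3.11.15 with scipy 1.17.1, numpy 2.4.6 and pandas 2.3.3, and figures were drawn with matplotlib 3.10.9.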

Additional observations from a re-analysis of the deposited data

Results flagged for a closer look

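Regions private to each deletion strain differed from wild-type-private regions in opposite directions, and with 1 library per strain the difference was not tested. The share centred in promoter windows was 17.1 percentage points higher for gcn5-private than for wild-type-private regions, and for sba1-private regions the difference was -13.7 points. The share centred in coding sequence differed by -17.7 points for gcn5-private regions and was 22.5 points higher for sba1-private regions. The promoter and coding classes exclude each other, so these differences are not independent. Where each list was shortened to its 2438 best-scored sites, the promoter shares were 50.9% for gcn5-private, 22.3% for sba1-private and 37.5% for wild-type-private regions. Regions private in that setting may overlap a site left out of another strain's shortened list.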

How the results depend on the processing

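No paired analysis was possible because each strain has 1 library. Over 53 alternative values, 32 stayed within 1.5 times the count or inside the interval of the value reported. Merging sites up to 50 or 150 bp apart moved none of the results computed under it beyond those bounds. Nor did leaving out regions near chromosome ends and ribosomal DNA. Merging at 150 bp gave 246 regions and 175 genes with a private promoter region, and leaving those regions out gave 244 and 182. Asking for 50% overlap of both sites to call them shared gave 943 regions, median width 143 bp, 43.8% in promoter windows, 40.6% in coding sequence, 17.1% within 50 kb of an end and 656 genes with a private promoter region. With the better-scored 50% of each list there were 135 regions, median width 294 bp, 60% in promoter windows, 22.2% in coding sequence and 124 genes. With the better-scored 50% of the gcn5 deletion list against full lists there were 15 regions, median width 281 bp, 73.3% in promoter windows, 13.3% in coding sequence and 14 genes. Equal numbers of best-scored sites moved the median width to 181.5 bp. Keeping only members at least 80 bp wide, chosen after seeing the data, moved it to 137.5 bp. Promoter windows of 250 and 1000 bp gave shares of 35.1% and 57.9%, and any overlap with the window gave 60.9%. Shorter lists and wider windows alter these values by construction; otherwise the cause was not tested. Depth limits how far a region absent from a list can be read as closed.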
